A study of Homo sapiens with 54 samples.

Results

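The 10 castration-resistant (CRPC) tumors of a series of 54 LNCaP xenografts were divided into sets chosen by the deposited level of TMPRSS2, an androgen-induced gene for a transmembrane serine protease. Tumors under 150 TPM (a length-normalized measure of transcript abundance) were called low (3 of 10) and the others high (7 of 10). The remaining genes were then compared between the sets, with other androgen targets set against KLK3, the gene for prostate-specific antigen (PSA), and against growth genes. LNCaP is an established human prostate cancer cell line that responds to androgen, and the stock used here was the clone FGC. Male NOD-SCID mice, whose lymphocytes do not mature, were obtained at 5 to 6 weeks of age and injected under the skin with 1000000 cells, 1 tumor being taken from each mouse. Mice of all groups had surgery when the tumor measured about 200 mm3.

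The mice of the CRPC group were castrated and given no drug, and their tumors were taken either at the return of serum PSA to its level before castration or at a volume of 1000 mm3. The labels do not say which of these ended the experiment for a given tumor. PSA is the protein product of KLK3, so that a product of the gene used here for comparison was part of the harvest criterion in all 10 mice. The other 44 tumors served for a second look at the same genes. They were 9 PRE-CX tumors from mice with mock surgery, taken at 1000 mm3, 8 POST-CX tumors taken 1 week after castration, at the first low point of PSA, and 27 tumors from castrated mice given enzalutamide, an antiandrogen, at 10 mg/kg by mouth on 5 days a week. Of the last, 12 were taken at the second low point of PSA (ENZS) and 15 after PSA or growth had returned on the drug (ENZR).

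In prostate epithelium androgen switches on genes such as the kallikreins KLK2 and KLK3 and the chaperone gene FKBP5. Castration removes testicular androgen, and castration-resistant tumors commonly regain the activity of such genes from little hormone. Serum PSA is the usual readout of that activity, and TMPRSS2 is another androgen target, known in prostate cancer as a partner in gene fusions with ERG. The ERG gene, which lies near TMPRSS2 on chromosome 21, was listed at 0 in 9 of the 10 CRPC tumors and at 0.149 TPM in the tumor of mouse 89.

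Values are given as rescaled TPM, in which the human genes of each tumor were made to sum to 1000000, because the deposited table holds human genes only and mouse transcripts of the host had taken a share of each library. The human share was 94.7%, 92.1% and 93.7% in the low tumors of mice 35, 36 and 102. It ranged from 77.1% to 97.0% in the high tumors. On this scale TMPRSS2 was at 113, 119 and 131 TPM in the low tumors of mice 35, 36 and 102. In the high tumors it was at 194 in mouse 47, 244 in mouse 29, 251 in mouse 89, 360 in mouse 107, 372 in mouse 78, 388 in mouse 43 and 419 in mouse 81. These values chose the sets and were not tested. The deposited values nearest the limit were 122.79 TPM in mouse 102 and 173.54 TPM in mouse 47, and dividing at 150 rescaled TPM gave the same sets.

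The tumors of both sets carried the markers of prostate luminal epithelium. KRT8 was between 221 and 411 TPM in the 10 tumors and KRT18 between 260 and 528 TPM, while 2 of the 12 genes of the list for basal and other epithelium passed the expression filter. KRT5 was listed at 0 in all 10 tumors, KRT14 was at 2.46 to 4.63 TPM in the low and 1.34 to 5.79 TPM in the high tumors, and ITGA6, an integrin gene not confined to basal cells, was at 13.2 to 20.9 and 9.23 to 27.8 TPM. Of the 20 neuroendocrine genes 5 passed. CHGA and INSM1 stayed under 0.2 TPM in all 10 tumors, SYP was at 1.19 to 1.97 TPM, DLL3 at 1.49 to 3.16, ONECUT2 at 0.604 to 1.56, the mitotic kinase gene AURKA at 9.02 to 30.3 and the glycolytic enzyme gene ENO2 at 35.2 to 162.

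Of 16189 genes besides TMPRSS2 that reached 1 TPM in at least 3 CRPC tumors, 0 (0%) passed an adjusted p of 0.05 in limma, a linear model fitted across all genes. At an unadjusted p of 0.05, 128 genes were lower in the low TMPRSS2 tumors (0.791% of those tested) and 46 were higher (0.284%). The lowest adjusted p was 0.537, for SLC45A3. Every low tumor lay below every high tumor for 74 genes (0.457%) and above every high tumor for 10 genes (0.0618%). Of the genes without overlap 88.1% were lower in the low tumors. That share was 76.5% with the deposited TPM (52 against 16 genes). It was 62.9% when each tumor was centered on its median (66 against 39). To be tested, a gene expressed only in low tumors had to reach 1 TPM in all 3 of them. A gene expressed only in high tumors had to do so in any 3 of 7. With no filter there were 118 lower and 53 higher genes. With the filter, the balance turned with 1 tumor, since without mouse 35 there were 133 lower and 177 higher genes. Without any 1 of the other 9 tumors lower genes outnumbered higher ones. Over all tested genes the median log2 difference was -0.04, and 61.0% of genes were lower. The set sizes permit only 120 arrangements of tumors, so that the exact permutation p for a single gene could not go below 0.00833. In sets drawn at random, about 1 in 120 genes would be without overlap in a given direction. The shares of 0.457% and 0.0618% were both smaller than that.

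Androgen-induced genes were mostly lower in the low TMPRSS2 tumors. The list, written by hand from genes known to be switched on by androgen in prostate cells, had 53 members in the table besides TMPRSS2. Of these, 51 passed the expression filter and ADAM7 and ORM1 did not. The log2 difference was below 0 for 49 of the 51 and above 0 for 2, with a median of -0.36. All 3 low tumors lay below all 7 high tumors for 8 members (15.7%, against 0.457% of all genes), namely SLC45A3, MAF, PMEPA1, KLK2, RHOU, FKBP5, ELL2 and ANKH. A further 5 members were lower at an unadjusted limma p under 0.05 with overlap between the sets, among them C1orf116, CAMKK2, HERC3 and MBOAT2. Together these made 13 members (25.5%, against 0.791% of all genes), and 0 members were higher at that level. These were bulk tumors, in which fewer cells with a transcript and less of it in each cell cannot be told apart.

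**Figure D1:**
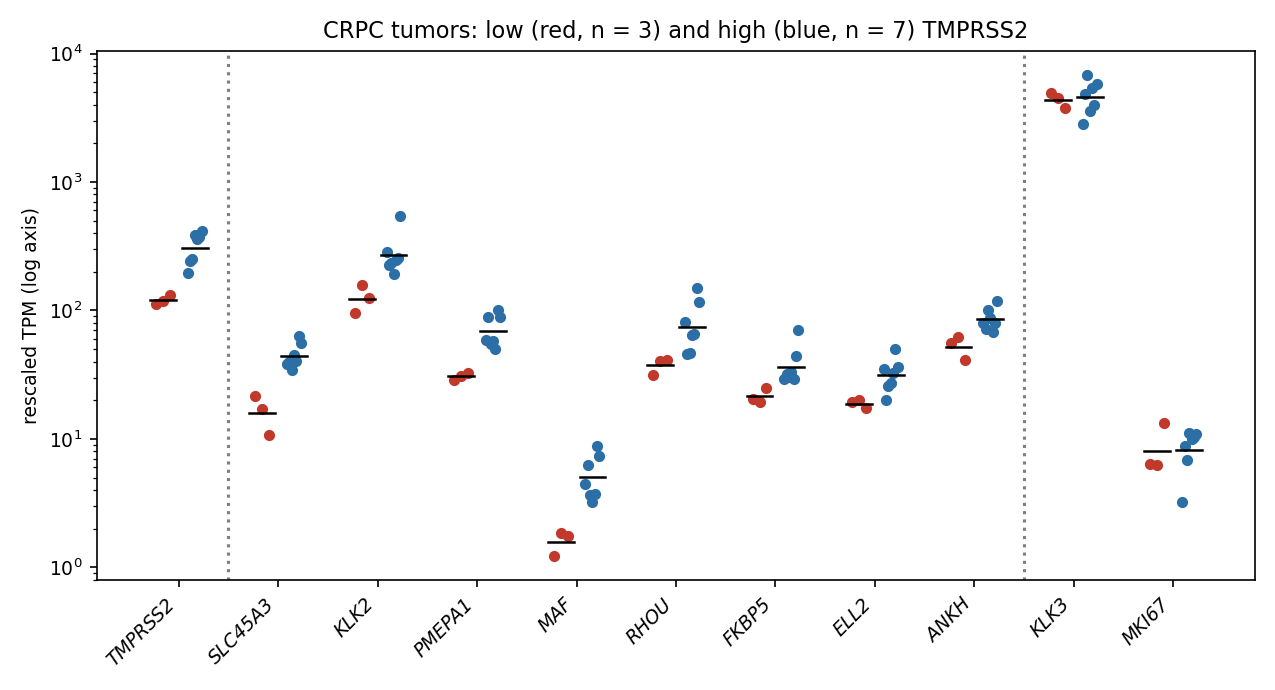
Rescaled TPM (log axis) of 11 genes in each CRPC tumor, with low TMPRSS2 tumors in red (n = 3) and high ones in blue (n = 7); black lines are geometric means and dotted lines set off TMPRSS2, which chose the sets, and 2 genes with little difference. For the 8 genes from SLC45A3 to ANKH no red point reaches a blue one, while KLK3 has the red points within the blue range and MKI67 has 1 red point above it.

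SLC45A3, which encodes the sugar transporter homolog prostein of prostate epithelium, had the lowest log2 difference of the list. It lies on chromosome 1 (GRCh38, chr1:205657851-205680509). Its level was 21.8, 17.1 and 10.7 TPM in the low tumors of mice 35, 36 and 102, against a lowest value of 34.1, a median of 40.6 and a highest value of 63.3 TPM in the high tumors. The lowest of the high tumors, in mouse 89, was still well above the highest low one. The difference was -1.42 on the log2 scale (SE 0.23, exact permutation p = 0.00833, the smallest possible), which corresponds to 0.373 of the level in the high tumors (95% interval 0.265 to 0.525).

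KLK2, which encodes the protease that activates pro-PSA, lies next to KLK3 on chromosome 19 (chr19:50873439-50880567 and chr19:50854915-50860764). It was at 94.9, 157 and 125 TPM in the low tumors of mice 35, 36 and 102. In the high tumors it was at 193 in mouse 43, 225 in mouse 29, 235 in mouse 89, 246 in mouse 107, 257 in mouse 78, 283 in mouse 47 and 544 in mouse 81. The sets did not overlap, and the tumor of mouse 81 stood above the other high ones. The log2 difference was -1.12 (SE 0.27, exact permutation p = 0.00833).

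PMEPA1, which encodes a membrane protein that dampens TGF-beta signaling (chr20:57648396-57711472), was narrow among the low tumors, at 28.8, 30.8 and 32.3 TPM. The high tumors ran from 50.6 TPM in mouse 107 through a median of 58.8 to 101 TPM in mouse 78. The log2 difference was -1.15 (SE 0.22, exact permutation p = 0.00833). FKBP5, the gene of a cochaperone of steroid receptors (chr6:35573590-35728583), was at 20.6, 19.4 and 25.1 TPM in the low tumors of mice 35, 36 and 102. It was at 29.1 TPM in mouse 47 and 29.3 TPM in mouse 107, the lowest of the high tumors, and at 70.6 TPM in mouse 81, the highest. The gap between the sets was small here beside the range of the high tumors, and the log2 difference was -0.74 (SE 0.25, exact permutation p = 0.0417).

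MAF, a leucine zipper transcription factor, was low throughout, at 1.23, 1.86 and 1.74 TPM in the low tumors and 3.24 to 8.80 TPM in the high ones (log2 difference -1.23). RHOU, a small GTPase gene, was at 31.2, 40.4 and 41.2 TPM against 46.0 to 151 TPM (-0.98). ELL2, a subunit of the transcription elongation complex, was at 19.3, 20.0 and 17.4 TPM against 20.2 to 50.3 TPM (-0.71). For RHOU and ELL2 the sets were close to meeting, through the tumor of mouse 29 on the high side. ANKH, a membrane protein of pyrophosphate transport, was at 55.5, 61.7 and 40.9 TPM against 68.3 to 119 TPM (-0.71).

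CAMKK2, a calcium-dependent kinase gene, was at 40.9, 61.4 and 63.8 TPM in the low tumors of mice 35, 36 and 102 and 52.5 to 92.1 TPM in the high ones (-0.49, and -0.29 without mouse 35). STEAP4, a metalloreductase gene, reached 3.18 TPM at most, with a log2 difference of -0.67 and overlap between the sets. ORM1, a plasma protein gene which shares reads with its near copy ORM2, lay between 0 and 1.55 TPM in the CRPC tumors, too low to be tested, against 4.32 to 74.2 TPM in PRE-CX.

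**Figure D2:**
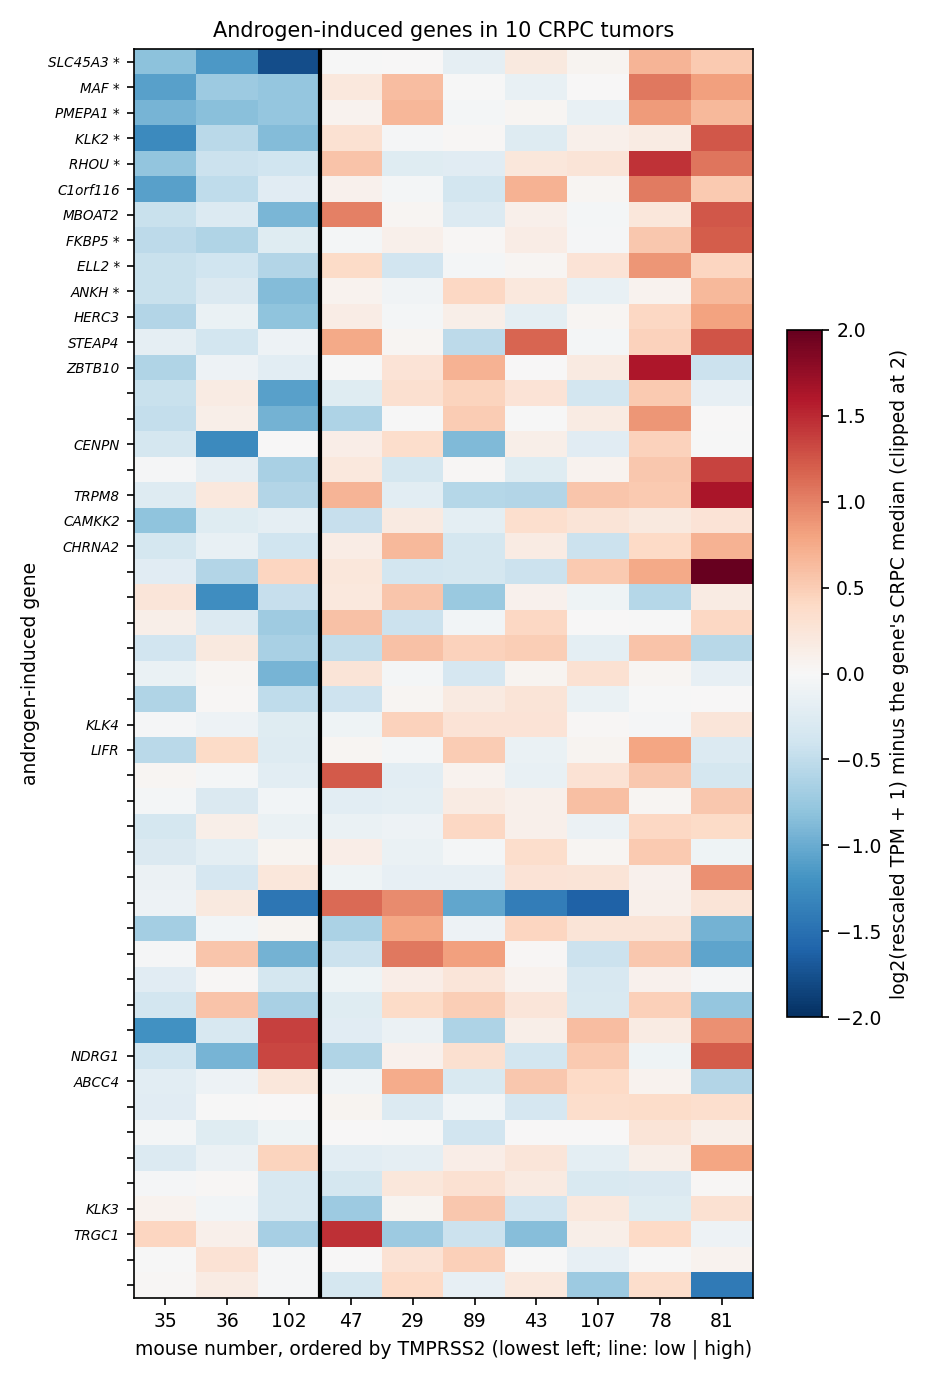
Heat map of 49 of the 51 tested androgen-induced genes (rows, ordered by log2 difference, with names for those described in the text and asterisks for the 8 without overlap) in the 10 CRPC tumors (columns, ordered by TMPRSS2), as log2(rescaled TPM + 1) minus the gene's median over the 10 tumors, clipped at 2. The 3 columns left of the line are mostly blue in the upper rows, and the colors mix in the lower rows, where KLK3 is found.

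By tumor, the number of the 51 genes below their median over the CRPC tumors was 45 in mouse 35, 34 in mouse 36 and 40 in mouse 102. In the high tumors it lay between 8 in mouse 78 and 27 in mouse 89. The mean of the 51 log2 values was 4.77, 4.92 and 4.79 in the low tumors of mice 35, 36 and 102, and 5.12 to 5.52 in the high ones. The shift was thus shared by all 3 low tumors.

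No difference in KLK3 was detected between the sets. It was at 4898, 4522 and 3762 TPM in the low tumors of mice 35, 36 and 102. In the high tumors it ran from 2825 TPM in mouse 47 through a median of 4857 to 6828 TPM in mouse 89. The 3 low tumors lay inside the range of the high ones, and the 2 lowest values of all, 2825 and 3601 TPM, were those of the high tumors of mice 47 and 43. The log2 difference was -0.07 (SE 0.25, 95% interval -0.60 to 0.47, exact permutation p = 0.817), which leaves room for a difference in either direction, and its sign changed to 0.04 without mouse 102. KLK4, another kallikrein gene of the prostate, was at 463, 435 and 395 TPM against 443 to 642 TPM (-0.29, exact permutation p = 0.05), with overlap through mouse 35.

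The log2 ratio of each of 10 androgen targets to KLK3 in the same tumor was compared between the sets, a comparison chosen after the values were seen. The log2 ratio of SLC45A3 to KLK3 averaged -8.01 in the low tumors and -6.66 in the high ones, a difference of -1.36 without overlap (exact permutation p = 0.00833, adjusted over the 10 genes 0.0833). The ratio of PMEPA1 to KLK3 differed by -1.08 and that of KLK2 to KLK3 by -1.05 (exact permutation p = 0.0333 and adjusted p = 0.111 for each). None of the 10 passed an adjusted p of 0.05, and the lowest adjusted value that 10 such tests could give from a single smallest p is 0.0833. As a share of KLK3, KLK2 was 1.94%, 3.47% and 3.33% in the low tumors of mice 35, 36 and 102 and between 3.44% and 10.0% in the high ones, the sets meeting at mice 36 and 89. Between NDRG1 and KLK3 and between ABCC4 and KLK3 the differences were -0.08 and -0.07, with exact permutation p of 0.9 and 0.892.

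The promoters of KLK2 and KLK3 are shown because KLK2 was without overlap between the sets and its adjacent relative KLK3 was not. Those of SLC45A3, PMEPA1 and FKBP5 are shown as examples of the other androgen-induced genes without overlap. Each run covers 250 bases before and 50 bases from the start of the gene in RefSeq (GRCh38.p14), 5′ to 3′ on the gene's own strand. Capitals mark AGAACA or GGAACA, the core of the androgen response element and a variant of it, searched on both strands. The KLK2 run is chr19:50873189-50873488 (plus strand), the KLK3 run chr19:50854665-50854964 (plus), the SLC45A3 run chr1:205680460-205680759 (minus), the PMEPA1 run chr20:57711423-57711722 (minus) and the FKBP5 run chr6:35728534-35728833 (minus).
KLK2: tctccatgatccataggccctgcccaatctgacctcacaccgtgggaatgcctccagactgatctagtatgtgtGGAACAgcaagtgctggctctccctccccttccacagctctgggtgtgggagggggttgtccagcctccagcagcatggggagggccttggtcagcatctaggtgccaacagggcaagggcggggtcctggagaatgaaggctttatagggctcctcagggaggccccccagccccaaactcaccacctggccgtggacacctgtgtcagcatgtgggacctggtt
KLK3: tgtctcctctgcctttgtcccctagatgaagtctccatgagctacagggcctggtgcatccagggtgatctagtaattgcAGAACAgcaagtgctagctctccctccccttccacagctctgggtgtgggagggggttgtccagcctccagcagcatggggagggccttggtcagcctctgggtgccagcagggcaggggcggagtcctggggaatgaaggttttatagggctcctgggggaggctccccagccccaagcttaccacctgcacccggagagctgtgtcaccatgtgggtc
SLC45A3: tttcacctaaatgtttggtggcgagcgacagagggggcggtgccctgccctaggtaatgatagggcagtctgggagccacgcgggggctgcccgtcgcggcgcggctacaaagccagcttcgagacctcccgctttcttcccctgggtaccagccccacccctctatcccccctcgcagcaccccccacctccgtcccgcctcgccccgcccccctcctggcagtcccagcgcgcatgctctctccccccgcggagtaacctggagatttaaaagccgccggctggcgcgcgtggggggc
PMEPA1: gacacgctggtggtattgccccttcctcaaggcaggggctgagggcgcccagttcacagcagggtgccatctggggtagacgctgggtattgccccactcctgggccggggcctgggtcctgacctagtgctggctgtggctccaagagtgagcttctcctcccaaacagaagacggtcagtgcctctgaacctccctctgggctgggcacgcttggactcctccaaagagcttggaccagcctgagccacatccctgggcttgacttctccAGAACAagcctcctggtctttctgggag
FKBP5: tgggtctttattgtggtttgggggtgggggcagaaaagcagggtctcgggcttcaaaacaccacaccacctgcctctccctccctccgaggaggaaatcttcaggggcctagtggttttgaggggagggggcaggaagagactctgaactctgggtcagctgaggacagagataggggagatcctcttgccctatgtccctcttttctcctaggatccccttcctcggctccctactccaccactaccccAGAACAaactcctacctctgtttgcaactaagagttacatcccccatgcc

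The KLK2 and KLK3 runs were 79.4% identical over 316 aligned columns. KLK2 held GGAACA 176 bases before its start and KLK3 held AGAACA 170 bases before its start. PMEPA1 and FKBP5 held AGAACA at position 273 and position 251 of their runs, and SLC45A3 held neither word. The runs of MAF, RHOU and ANKH, also without overlap between the sets and not printed here, held neither word. Of the 8 androgen-induced genes without overlap 7 had a promoter entry, and 3 of these 7 held 1 of the words. Promoters of the other genes without overlap were not searched. Of all 35116 promoters of that length in the table, 14.8% held AGAACA and 14.0% held GGAACA, so that these matches are frequent. The full palindrome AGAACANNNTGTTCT was in 1 promoter of the table (0.0028%) and in none of these 5. The matches describe letters in a window and not binding.

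Genes known to be held down by androgen lay on both sides of 0. The list had 23 tested members, of which 10 were lower and 13 higher in the low tumors, with a median of 0.01. Members without overlap numbered 0, against 0.457% (lower) and 0.0618% (higher) of all genes. FOLH1, the gene of prostate-specific membrane antigen, differed by 0.01. The opioid receptor gene OPRK1 and the amine-forming enzyme gene DDC were at log2 differences of 0.55 and 0.52, with low tumors at 60.2 to 111 TPM and 112 to 386 TPM and high tumors at 11.5 to 129 TPM and 32.4 to 362 TPM. The sets overlapped for both genes, and the difference of DDC ran from 0.08 without mouse 36 to 0.96 without mouse 102. AOC1, a diamine oxidase gene, had the highest value of the list (1.12, but 0.52 without mouse 36) and UGT2B11, of the glucuronidation enzymes, the lowest (-1.13). UGT2B15 and UGT2B17, enzymes that inactivate androgens, differed by -0.04 and 0.13, and both signs changed when single tumors were left out (-0.60 to 0.58 and -0.20 to 0.60). Within their family near-identical copies share reads, so that these values are uncertain.

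No difference in growth genes was detected between the sets, within wide intervals. MKI67, the gene of the proliferation marker Ki-67, was at 6.36, 6.24 and 13.3 TPM in the low tumors of mice 35, 36 and 102 and at 3.21 to 11.2 TPM in the high ones. The highest and the lowest of the 10 values were thus those of mouse 102, a low tumor, and mouse 47, a high one. Its log2 difference was -0.02 (95% interval -0.74 to 0.70). TOP2A, the topoisomerase of mitosis, differed by 0.05, the helicase subunit gene MCM2 by -0.00 and the replication clamp gene PCNA by 0.03.

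The DNA replication list had 37 tested members, 18 of them lower and 19 higher, with a median of 0.00. The mitosis list had 36 tested members, 12 lower and 24 higher, with a median of 0.01. Neither had a member without overlap, which for lists of this size is near the 0.457% (lower) and 0.0618% (higher) of all genes. Both medians depended on single tumors, at -0.23 and -0.30 without mouse 102 and at 0.19 and 0.37 without mouse 36. The mean log2 value of the mitosis list was 4.46, 3.77 and 5.05 in the low tumors of mice 35, 36 and 102 and 3.72 to 5.15 in the high ones, nearly the same range. Measured against this mean in the same tumor, SLC45A3 differed by -1.44, PMEPA1 by -1.16, KLK2 by -1.13 and FKBP5 by -0.75 on the log2 scale, while KLK4 differed by -0.30, NDRG1 by -0.16 and ABCC4 by -0.15. Of the 10 genes compared in this way 0 passed an adjusted p of 0.05, the lowest adjusted value by exact permutation being 0.0833.

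**Figure D3:**
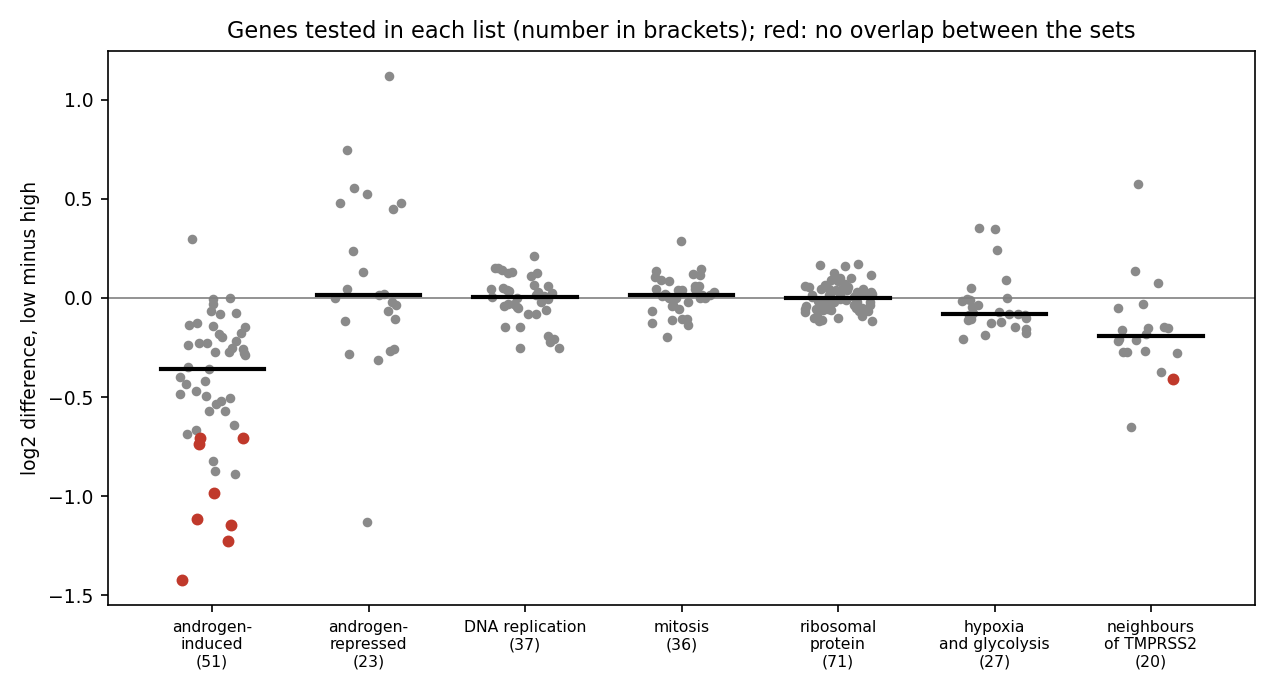
Log2 difference (low minus high TMPRSS2 tumors) of each tested gene in 7 lists, with the number of genes in brackets, the list median as a black line and genes without overlap between the sets in red. The androgen-induced genes lie mostly below 0 (median -0.36), the DNA replication, mitosis and ribosomal protein genes around 0, and the neighbors of TMPRSS2 slightly below 0 (median -0.19).

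Medians of the other lists are given beside the -0.04 of all genes. The 71 ribosomal protein genes had a median of 0.00, 24 cholesterol synthesis genes -0.03, 17 fatty acid synthesis genes 0.00, 27 hypoxia and glycolysis genes -0.08, 20 genes of the unfolded-protein response 0.09, 21 genes of the ATF4 amino acid response -0.04, and 24 interferon-stimulated genes, with MX1 at -0.03, a median of -0.03. Of the androgen synthesis and breakdown genes 18 were tested, with a median of -0.04. The 10 tested ERBB receptor and ligand genes had a median of -0.17 and the 5 tested neuroendocrine genes 0.02. None of these lists had a member without overlap, against 0.457% (lower) and 0.0618% (higher) of all genes. At such shares lists of this size would be expected to hold few or none. The luminal identity list, which shares genes such as SLC45A3 and KLK2 with the androgen-induced list, had 19 tested members and a median of -0.11, and its 2 members without overlap (10.5%, against 0.457% of all genes) were SLC45A3 and KLK2. FOXA1, the gene of a pioneer transcription factor of prostate epithelium, differed by -0.08 and the homeobox gene HOXB13 by 0.02, each with overlap.

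Genes around TMPRSS2 on chromosome 21 were also lower in sum. The 31 neighbors listed added up to 595 to 629 TPM in the low tumors against 650 to 760 TPM in the high ones. The 20 of them that were tested had a median of -0.19, with 17 below 0, where 61.0% of all genes were lower. Only ZBTB21, a zinc finger gene, was without overlap (1 of 20 or 5%, against 0.457% of all genes). It was at 12.3 to 13.2 TPM against 13.2 to 23.4 TPM (log2 difference -0.41). RIPK4, a kinase gene, had the lowest value, -0.65, with overlap through mouse 47. The part of this region in the level of TMPRSS2 was not tested.

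Genes of stroma, vessels and blood were also listed. Their values count reads assigned to human genes, since the deposited table holds no mouse genes, so that they do not measure host tissue directly. Of 25 members 9 were tested, and PECAM1, PTPRC and HBB, which mark endothelium, leukocytes and red cells, were under 0.2 TPM in all 10 tumors. The members added up to 147, 180 and 1173 TPM in the low tumors of mice 35, 36 and 102 and to 95.9 to 278 TPM in the high ones. The value of mouse 102 came from VIM, the gene of the filament protein vimentin, at 1018 TPM. VIM was at 27.4 and 59.3 TPM in the low tumors of mice 35 and 36 and at 3.37 to 63.8 TPM in the high ones, and its log2 difference of 2.23 dropped to 0.68 without mouse 102. The matrix genes LUM and DCN differed by 1.34 and 1.17, with low tumors at 6.18 to 41.9 and 1.72 to 19.2 TPM and high ones at 1.41 to 66.4 and 0.611 to 18.8 TPM, so that the sets overlapped. For RNA quality, mitochondrial transcripts made up 130457, 126412 and 101502 TPM in the low tumors of mice 35, 36 and 102 and 75662 to 121167 TPM in the high ones. The part of these in the differences between the sets was not tested.

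Beyond the androgen-induced list, few genes with a mean of 5 TPM or more in either set were without overlap and far apart. The 10 largest differences in the downward direction were those of SLC45A3, MAF, GUCY1B1, PMEPA1, KLK2, RHOU, PNMA1, FKBP5, ASRGL1 and ELL2, of which GUCY1B1, PNMA1 and ASRGL1 are not on the list. GUCY1B1, the beta subunit of soluble guanylate cyclase, was at 0.982, 3.18 and 1.22 TPM in the low tumors against 3.66 to 9.48 TPM (-1.22). PNMA1, a gene of the paraneoplastic antigen family, was at 9.44, 12.0 and 12.3 TPM against 13.2 to 24.1 TPM (-0.80). ASRGL1, an asparaginase gene, was at 3.18 to 3.27 TPM against 3.52 to 14.9 TPM (-0.72). Upward, only 7 genes met the rule, and their log2 differences were small: AL354696.1 (0.62), FGF7P3 (0.59), AC004982.2 (0.41), ACAD11 (0.41), ARGLU1 (0.37), METTL25 (0.25) and COG6 (0.16). ACAD11, an acyl-CoA dehydrogenase gene, was at 35.1, 34.7 and 42.6 TPM against 20.6 to 32.9 TPM.

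The low tumors were then placed beside the other groups. In PRE-CX tumors TMPRSS2 lay between 359 and 975 TPM and in POST-CX tumors between 73.3 and 326 TPM, and all 3 low CRPC tumors lay in the POST-CX range, as did the high tumors of mice 47, 29 and 89. SLC45A3 lay between 121 and 268 TPM in PRE-CX and between 11.9 and 38.6 TPM in POST-CX. All 10 CRPC tumors were below the lowest PRE-CX tumor for SLC45A3, and the low tumors were at the level of the POST-CX ones or, in mouse 102, under the lowest. Of the high tumors, that of mouse 89 (34.1 TPM) also lay in the POST-CX range for SLC45A3, and that of mouse 47 (38.6 TPM) at its upper edge. KLK3 was at 2129 to 6770 TPM in PRE-CX and at 604 to 3203 TPM in POST-CX. All 3 low tumors exceeded every POST-CX tumor in KLK3 and lay inside the PRE-CX range. So did the high tumors, except mouse 47 (2825 TPM), within the POST-CX range, and mouse 89 (6828 TPM), above the PRE-CX range. POST-CX tumors had been taken at the first low point of PSA, the product of KLK3. Of the 51 androgen-induced genes, 7 were above the highest POST-CX tumor in each of the low tumors, against 13 to 31 in the high ones. Between 28 and 35 were below the lowest PRE-CX tumor in the low tumors and between 17 and 27 in the high ones. These ranges are descriptions and the groups differ in number of tumors.

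The same relation was measured in the 44 tumors outside CRPC, which had no part in the division. Each of 17410 genes was fitted on log2 TMPRSS2 with the group as a covariate, so that a slope of 1 means a doubling for a doubling of TMPRSS2. Slopes passed an adjusted p of 0.05 in limma and were positive for 144 genes (0.827%) and negative for 233 (1.34%). This balance depended on the scaling, at 623 positive against 370 negative with each tumor centered on its median and 12548 against 33 with the deposited TPM. Of the 52 androgen-induced genes tested there, 16 rose with TMPRSS2 (30.8%) and 0 fell, with a median slope of 0.31 against -0.04 over all genes. SLC45A3 had a slope of 1.22 (SE 0.14, limma adjusted p = 7.86e-07), PMEPA1 of 0.71 (SE 0.10, 2.63e-05), FKBP5 of 0.70 (SE 0.13, 0.00415) and KLK2 of 1.02 (SE 0.26, 0.0263).

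Of the 8 androgen-induced genes without overlap in CRPC, 7 passed the test outside CRPC with a positive slope, MAF being the exception (slope 0.07, limma adjusted p = 0.854). Of the 13 with an unadjusted p under 0.05 in CRPC, 10 did so. Over the whole list of 52 genes tested there, the share was 30.8%. The 6 other androgen-induced genes that passed with a positive slope outside CRPC (CENPN, CHRNA2, LIFR, TRGC1, TRPM8 and ZBTB10) had overlap between the low and high CRPC tumors. Of all 74 genes without overlap downward in CRPC, 47 had a positive and 27 a negative slope outside CRPC, where 37.3% of all genes had a positive one. The test was passed by 10 of them (13.5%, against 0.827% of all genes), all with a positive slope. Those not on the androgen list were IRS2, PNMA1 and RAB4A. Of the 10 genes without overlap upward, 3 had a positive and 7 a negative slope, and 0 passed.

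KLK3 had a slope of 0.70 outside CRPC (SE 0.26, limma adjusted p = 0.119), which did not pass, and MKI67 one of 0.56 (SE 0.14, 0.0324), which did. In the DNA replication list 7 of 37 genes rose with TMPRSS2 there (18.9%, against 0.827% of all genes), with a median slope of 0.31, and in the mitosis list 2 of 36 (5.56%), with a median of 0.50. The slope in CRPC minus the slope elsewhere was -0.61 for KLK3 (SE 0.51, unadjusted limma p = 0.243) and -0.27 for MKI67 (SE 0.30, 0.38). Of 17592 genes 0 had a difference of slopes that passed an adjusted p of 0.05 in limma (509 at an unadjusted p under 0.05), so that a difference between CRPC and the other groups was not shown for KLK3 or the growth genes.

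**Figure D4:**
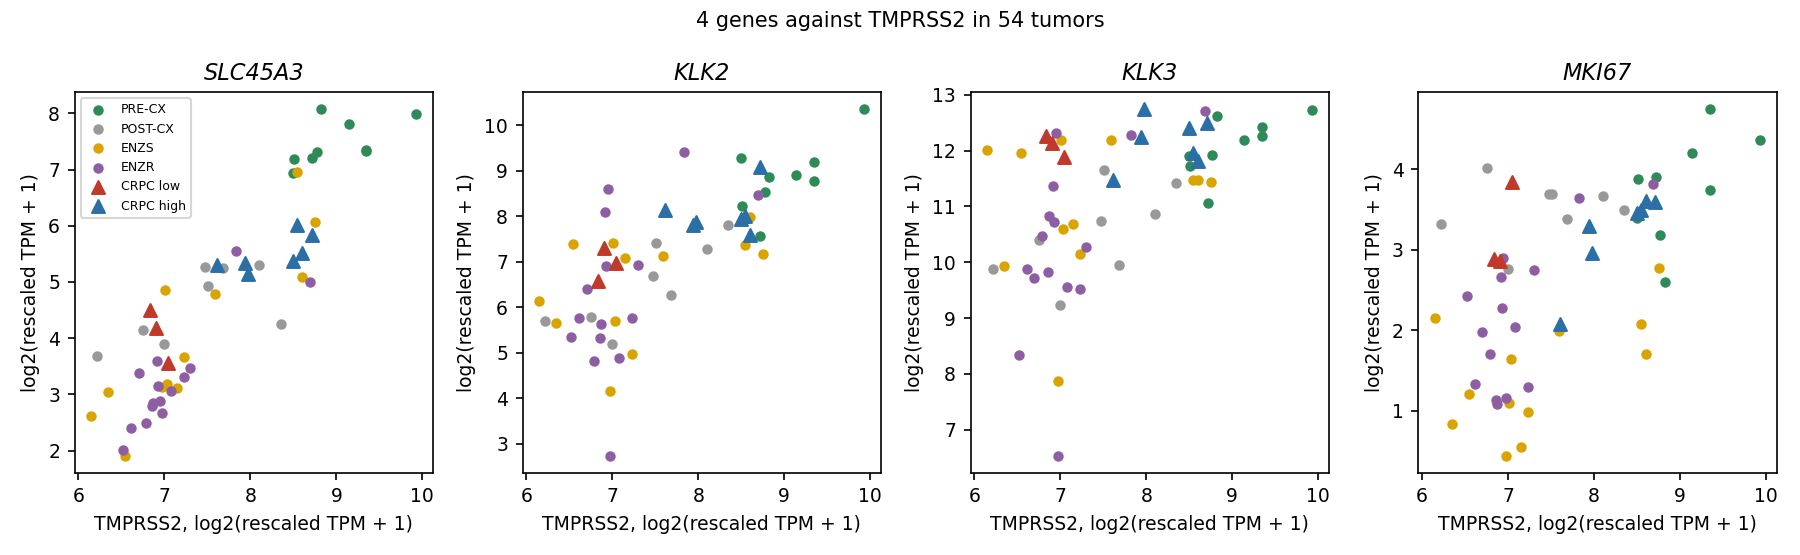
SLC45A3, KLK2, KLK3 and MKI67 against TMPRSS2 in all 54 tumors, each axis as log2(rescaled TPM + 1), with circles for the 4 other groups and triangles for the CRPC tumors (red low, blue high). For SLC45A3 and KLK2 the red triangles lie lower than the blue ones, while for KLK3 the triangles of both colors share 1 range in the upper part of the panel.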

How the data were processed

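RNA-seq was carried out on 54 LNCaP xenograft tumors, and the 10 CRPC tumors were analysed here with the other 44 as a second set. Strand-specific libraries of polyadenylated RNA had been sequenced as paired ends. Per the labels and the submitters' processing notes, the authors used FastQC 0.11.9, Trim Galore 0.6.5, STAR 2.7.2b and RSEM 1.3.3 with human GRCh38 and mouse GRCm38, and deposited TPM per human gene symbol. TPM keep no read depth, so the depth of each tumor is unknown and no counting interval is given. No batch is named in the labels, and mouse numbers served as names only. RSEM divides reads among near-identical copies.

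Each tumor was rescaled to 1000000 over 60642 human symbols and analysed as log2(TPM + 1), which understates differences of low genes. Genes reaching 1 TPM in 3 CRPC tumors (outside CRPC, in 8 tumors) were tested with limma 3.58.1 in R 4.3.3, with trend, and Benjamini-Hochberg adjustment over all genes but TMPRSS2. The spread is that between tumors of separate mice. Single genes were also tested by two-sided exact permutation over the 10 tumors. The fits were also run on simulated data. No result of that run is given here, so it does not show that differences of the reported size could be detected. Named genes were a panel (TMPRSS2, KLK2, KLK3, KLK4, FKBP5, STEAP4, PMEPA1, SLC45A3, ABCC4, NDRG1, CAMKK2, ORM1, FOLH1, FOXA1, HOXB13, UGT2B15, UGT2B17, OPRK1, DDC, MKI67, TOP2A, MCM2, PCNA, MX1 and 2 not reported here), the 10 largest non-overlapping differences per direction at a mean of 5 TPM or more, and the extremes of each list; list members beyond these were named after their values were seen. The tumors, the division and the gene lists were chosen with earlier results of these data known. Alternatives were the scaling, pseudocount, filter, centering, variance model, predictor, split and leaving out each CRPC tumor. Promoters came from RefSeq (GRCh38.p14) and were aligned with Biopython 1.88.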

Additional observations from a re-analysis of the deposited data

Results flagged for a closer look

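OPRK1 was at 11.5 TPM in the high TMPRSS2 tumor of mouse 81, against 38.4 to 129 TPM in the other 9 CRPC tumors, and this gap to the nearest tumor exceeded Dixon's 95% critical value for 10 samples on the log2 scale. It was 1 of 24 panel genes looked at in this way, and chance flags about 1 in 20. Without mouse 81 the log2 difference of OPRK1 between low and high tumors went from 0.55 to 0.21, and the sets overlapped in both cases.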

How the results depend on the processing

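No paired analysis was possible because the groups share no mouse numbers. The deposited TPM, a pseudocount of 0.1, no filter, centering, a model without trend, all 54 tumors in 1 fit and the slope on TMPRSS2 within CRPC (542 genes at an unadjusted p under 0.05) all gave 0 called genes between low and high tumors. A further limit on fold could only leave 0. Leaving out each tumor gave 0 to 1: RNVU1-22 without mouse 43 (limma adjusted p = 0.00742) and RNU2-7P without mouse 107 (0.0369), each higher in the low tumors and listed at 0 in the remaining high ones. Each call rested on leaving out a high tumor that held the gene. RNVU1-22 was at 14.7 TPM in mouse 43, above the low tumors (2.59 to 6.26). RNU2-7P was at 1.68 TPM in mouse 107, within the range of the low tumors (1.45 to 1.77). Genes without overlap numbered 84, and 171 with no filter (118 lower, 53 higher). Leaving out each tumor gave 99 (without mouse 78) to 387 (without mouse 36), and sets with fewer tumors overlap less by construction. It gave -0.18 (without mouse 47) to 0.04 (without mouse 102) for KLK3, -0.54 (without mouse 36) to -0.32 (without mouse 102) for the androgen-induced median, -0.23 to 0.19 for DNA replication and -0.30 to 0.37 for mitosis. Outside CRPC, 377 genes passed, but 12581 with deposited TPM, 141 with no filter, 993 with centering and 1040 in ENZS and ENZR alone. The cause was not tested for these 4 counts. For the deposited TPM, the human share ran from 12.1% to 97.5% among those tumors and scales every gene. Of 1107 alternatives for single named genes, 1101 left the side of the threshold unchanged, 5 lost it, 1 gained it (KLK3 outside CRPC with deposited TPM) and 0 reversed a called direction. Between low and high CRPC tumors no named gene was called at the start, so that unchanged there meant still not called.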
